A study of Mus musculus with 10 samples.

Results

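Lymphocytes in the heart were followed through 9 genes: *Ptprc*, *Cd3d*, *Cd3e*, *Cd3g*, *Cd4*, *Cd8a*, *Cd79a*, *Cd79b* and *Ms4a1*. They were chosen by name as the common transcript markers of leukocytes, T cells and B cells, and each matched 1 of the 54532 genes measured. All 9 were read in heart tissue of 10 *Rit1* M90I/+ mice, of which 5 came from vehicle-treated mice and 5 from mice given trametinib, an inhibitor of the kinases MEK1 and MEK2 (MEKi). Dosing at 1 mg/kg once a day began at 4 weeks of age and lasted 20 weeks, and by the study's methods the hearts were collected 2 hours after the last dose. All mice of both groups carried the M90I allele of the RAS-related GTPase *Rit1* in every tissue, because the conditional line had been crossed to a cytomegalovirus-Cre deleter. No heart without the allele was measured, so the values describe treatment within mutant hearts only. Males and females were both enrolled, and poly(A) RNA of the tissue was sequenced with no cell sorting stated. The methods describe overnight formalin fixation of the hearts, and do not say which portion of a heart gave the RNA or whether blood was flushed out.

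Lymphocytes recognise antigen through receptors that cannot signal by themselves. The T cell receptor signals through the CD3 chains, encoded by *Cd3d*, *Cd3e* and *Cd3g*, and is helped by the coreceptors CD4 and CD8, which bind MHC class II and class I. The B cell receptor, a membrane antibody, signals through CD79A and CD79B, and CD20, the product of *Ms4a1*, is a membrane protein of B cells. CD45, the phosphatase encoded by *Ptprc*, is found on leukocytes of every kind and keeps the kinases of both receptors ready to act. A heart holds few resident lymphocytes, and the blood inside its vessels brings more. In RNA of a tissue, fewer cells of a type and less RNA per cell cannot be told apart.

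The values are FPKM, fragments scaled by gene length and by library size, so levels can be compared between genes. Between 13647167 and 18474002 fragments were assigned to genes in each heart, and every FPKM could be turned back into whole fragments. The mitochondrial share of fragments lay between 24.7 and 35.01% for vehicle and between 24.0 and 28.7% for MEKi. Markers of cardiomyocytes were high in every heart, with summed FPKM from 9858 to 13638 over 6 genes. Transcripts linked to sex split the hearts in the same way as treatment did. *Xist*, from the inactive X chromosome, averaged 5.86 ± 0.671 FPKM (SD, n = 5) in MEKi hearts and at most 0.00662 in any vehicle heart, while the Y-linked *Ddx3y* averaged 11.2 ± 0.714 in vehicle hearts and was listed at 0 in all MEKi hearts. Treatment and this split cannot be told apart in any comparison that follows.

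The 3 CD3 genes lie side by side on chromosome 9 (GRCm38), within 40056 bases. *Cd3g* (chr9:44969572-44980431, minus strand) and *Cd3d* (chr9:44981786-44987339, plus strand) point away from each other with 1354 bases between them, and *Cd3e* (chr9:44998740-45009627, minus strand) lies 11400 bases beyond the end of *Cd3d*. The 250 bases before the RefSeq start of each (build GRCm38.p6) are shown because these neighbours encode partners in 1 receptor, and those of *Cd8a*, on chromosome 6, because its group means stood in the largest ratio. Capitals mark the core of Ets family sites, GGAA on either strand.
Cd3d, chr9:44981536-44981785, plus strand: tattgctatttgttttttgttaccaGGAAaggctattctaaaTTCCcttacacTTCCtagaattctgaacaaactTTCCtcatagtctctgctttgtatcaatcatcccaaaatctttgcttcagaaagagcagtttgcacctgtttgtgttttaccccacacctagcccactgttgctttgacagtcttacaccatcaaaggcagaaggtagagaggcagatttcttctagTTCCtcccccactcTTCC
Cd3e, chr9:45009612-45009861, minus strand: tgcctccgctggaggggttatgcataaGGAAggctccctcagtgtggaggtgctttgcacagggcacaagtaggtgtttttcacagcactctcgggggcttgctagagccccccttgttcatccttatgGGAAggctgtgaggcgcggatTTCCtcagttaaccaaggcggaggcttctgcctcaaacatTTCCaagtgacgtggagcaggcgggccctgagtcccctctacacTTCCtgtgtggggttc
Cd3g, chr9:44980432-44980681, minus strand: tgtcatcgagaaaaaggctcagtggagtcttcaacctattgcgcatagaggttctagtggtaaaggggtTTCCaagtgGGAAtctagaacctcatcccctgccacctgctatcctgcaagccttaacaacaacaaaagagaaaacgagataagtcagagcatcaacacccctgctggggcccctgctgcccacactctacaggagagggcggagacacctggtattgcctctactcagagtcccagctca
Cd8a, chr6:71373177-71373426, plus strand: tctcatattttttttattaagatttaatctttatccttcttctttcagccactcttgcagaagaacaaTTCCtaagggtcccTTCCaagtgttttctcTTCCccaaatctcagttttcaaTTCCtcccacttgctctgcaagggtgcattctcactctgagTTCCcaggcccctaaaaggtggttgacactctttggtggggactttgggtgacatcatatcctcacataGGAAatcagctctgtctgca

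The *Cd3d* window held 6 matches to the Ets core, *Cd3e* 5, *Cd3g* 2 and *Cd8a* 6. At least 1 match was present in 93.4% of 32851 promoter windows of the same length, with a median of 3, and 8.69% of them held 6 or more. The matches nearest to the start began at -4 in *Cd3d*, -16 in *Cd3e*, -20 in *Cd8a* and -172 in *Cd3g*. None of the 4 windows held the letters TATAAA, which 12.4% of all windows did. The E-box letters CANNTG were present 1 time for *Cd3d* and *Cd3e*, 2 times for *Cd8a* and 3 times for *Cd3g*, against 66.2% of windows with at least 1.

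All 9 genes were detected, at low levels. Ranked by mean FPKM over the 10 hearts, *Cd79a* came first with 1.88 FPKM, followed by *Cd79b* (1.26), *Ptprc* (0.663), *Cd3d* (0.391), *Cd4* (0.265), *Cd8a* (0.212), *Ms4a1* (0.188), *Cd3g* (0.184) and *Cd3e* (0.0785). Among 16692 protein-coding genes above 0, 52.3% lay below *Cd79a* and 18.0% below *Cd3e*. Only 3 of the 9 genes reached a mean of 0.5 FPKM. Several neighbours in this order could not be separated by their values in single hearts: *Cd79a* exceeded *Cd79b* in 7 of 10 hearts, *Cd4* exceeded *Cd8a* in 6, *Cd8a* exceeded *Ms4a1* in 5 and *Ms4a1* exceeded *Cd3g* in 3. The steps from *Cd79b* to *Ptprc* and from *Ptprc* to *Cd3d* held in 9 of 10 hearts each.

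The order depends on the gene length used. The deposited lengths count every base that is exonic in any transcript, which for *Ptprc* (chr1:138062861-138175708, minus strand) gives 18313 bases over 13 transcripts, against 4702 in its principal transcript. For *Cd3e* and *Ms4a1* the deposited length was 2.79 and 2.01 times that of the principal transcript, and for *Cd3g* it was 3269 against 1023 bases. Dividing by the principal transcript instead, a choice made after the levels were seen, put *Ptprc* first with 2.58 FPKM, ahead of *Cd79a* in 8 of 10 hearts, and moved *Cd3g* from place 8 to place 4 with 0.588 FPKM. Fragments from exons outside the principal transcript were kept in this division, so its levels are upper limits. *Cd3e* stayed last. The ratio of FPKM between hearts for 1 gene does not depend on the length.

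**Figure D1:**
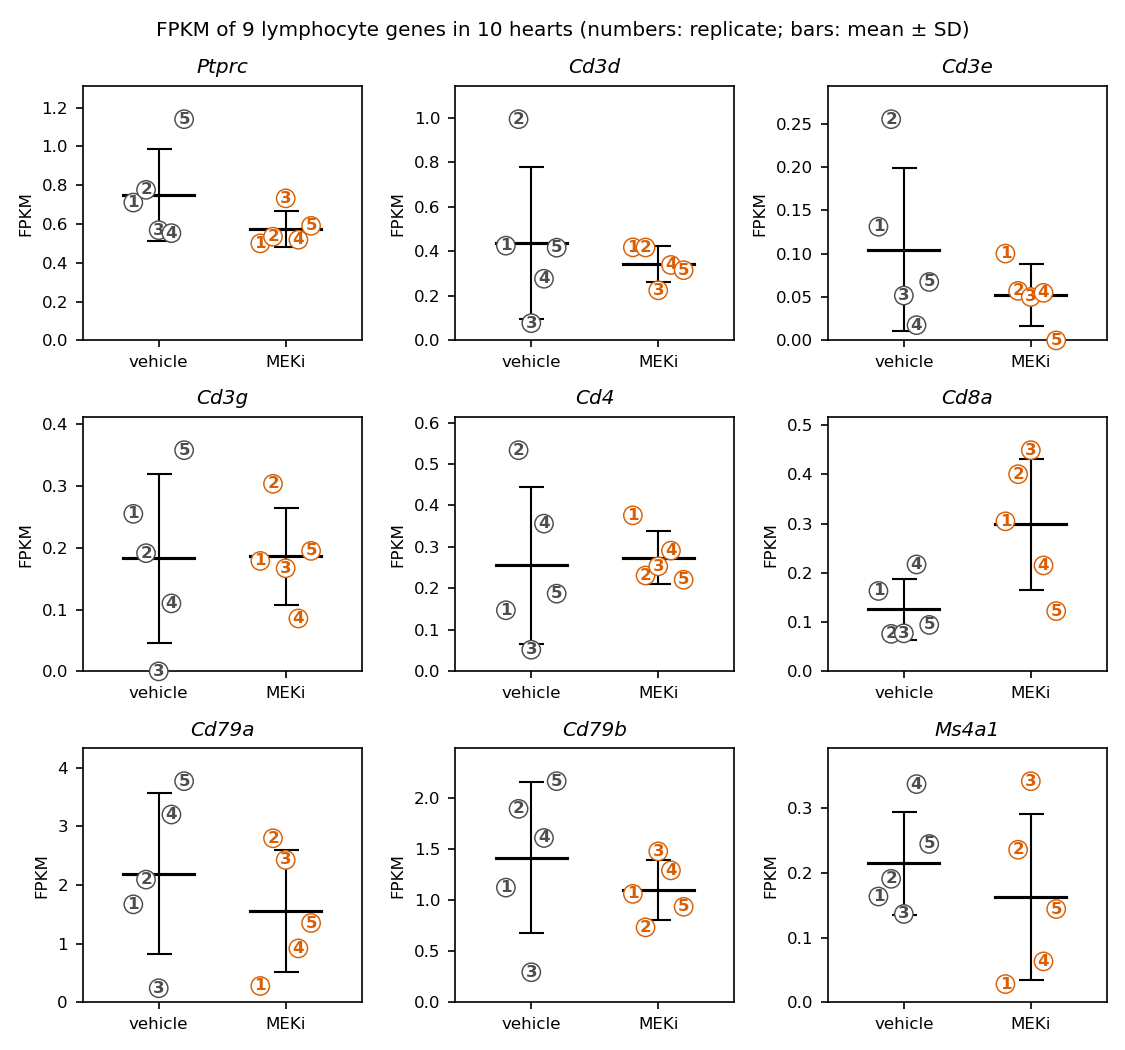
FPKM (vertical axes, each with its own scale from 0) of the 9 lymphocyte genes in 5 vehicle and 5 MEKi hearts. Circled numbers are replicate numbers, horizontal lines are means and error bars are SD; the groups overlap for every gene, and vehicle heart 3 is the lowest of all 10 hearts for *Cd3d*, *Cd3g*, *Cd4*, *Cd79a* and *Cd79b*.

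*Ptprc* (ENSMUSG00000026395), the marker of all leukocytes, was at 0.711, 0.776, 0.568, 0.553 and 1.14 FPKM in vehicle hearts 1 to 5 and at 0.5002, 0.535, 0.732, 0.519 and 0.591 FPKM in MEKi hearts 1 to 5. Vehicle heart 5 was the highest and MEKi heart 1 the lowest, and the groups overlapped. The means were 0.750 ± 0.238 and 0.575 ± 0.0941 FPKM (SD, n = 5 each). On the scale of log2(FPKM + 0.1), which understates the change of genes at low FPKM, the difference of MEKi minus vehicle was -0.30 (SE 0.21, 95% confidence interval -0.75 to 0.15). The limma adjusted p over all genes tested was 0.808, and the exact permutation p of the mean FPKM was 0.127 (two-sided, unadjusted). With from 141 to 304 fragments per heart, *Ptprc* was the best counted of the 9 genes. Its variance between vehicle hearts was 19.9 times what counting error alone would give. The log2 difference ran from -0.39 to -0.15 when each heart was left out in turn, and was nearest to 0 without vehicle heart 5.

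Across the series, 16615 genes averaged 0.1 FPKM or more and entered the limma fit, and 0.0782% of them had an adjusted p under 0.05. The same fit gave an unadjusted p under 0.05 to 7.04% of genes, and 1.51% had groups that did not overlap. Of the 9 lymphocyte genes 8 passed the filter, all but *Cd3e*. None of the 8 was called (0 also with limma voom on recovered fragments), 1 (*Cd8a*) had an unadjusted p under 0.05, and 0 had groups that did not overlap. Higher mean log2 values in MEKi hearts were seen for 3 and lower values for 5, with a median difference of -0.11 against 0.0059 for all genes tested. On a TPM scale, where the median of all genes moved to 0.08, the split became 4 higher and 4 lower. The exact permutation test over 5 against 5 hearts cannot give a p below 0.00794.

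The CD3 genes had few fragments, and their groups overlapped. *Cd3d* (ENSMUSG00000032094), which encodes CD3 delta, was at 0.426, 0.994, 0.0775, 0.277 and 0.416 FPKM in vehicle hearts 1 to 5 and at 0.418, 0.417, 0.225, 0.339 and 0.316 FPKM in MEKi hearts 1 to 5. Both the highest value (vehicle heart 2, 26 fragments) and the lowest (vehicle heart 3, 2 fragments) belonged to the vehicle group, with all MEKi hearts between them. The means were 0.438 ± 0.341 and 0.343 ± 0.0803 FPKM (SD, n = 5 each). The log2 difference was -0.06 (SE 0.40, 95% confidence interval -0.95 to 0.82, limma adjusted p = 0.982), with the opposite sign on the TPM scale (0.02), and the exact permutation p was 0.698.

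*Cd3g* (ENSMUSG00000002033), which encodes CD3 gamma, was at 0.255, 0.191, 0, 0.110 and 0.357 FPKM in vehicle hearts 1 to 5 and at 0.178, 0.303, 0.167, 0.0855 and 0.195 FPKM in MEKi hearts 1 to 5. No fragment was found in vehicle heart 3, which at 3 fragments allows up to 0.0645 FPKM, and vehicle heart 5 had the most. The means were nearly equal, 0.183 ± 0.136 and 0.186 ± 0.0779 FPKM (SD, n = 5 each). MEKi minus vehicle on the log2 scale was 0.14 (SE 0.42, 95% confidence interval -0.77 to 1.06, limma adjusted p = 0.962, exact permutation p = 0.952). It was -0.19 without vehicle heart 3.

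*Cd3e* (ENSMUSG00000032093), which encodes CD3 epsilon, was at 0.131, 0.255, 0.0517, 0.0176 and 0.0674 FPKM in vehicle hearts 1 to 5 and at 0.1001, 0.0571, 0.0501, 0.0548 and 0 FPKM in MEKi hearts 1 to 5. Vehicle hearts 1 and 2 held 9 and 15 of its 50 fragments, and MEKi heart 5 had none, which allows up to 0.0468 FPKM. The means were 0.105 ± 0.0936 and 0.0524 ± 0.0355 FPKM (SD, n = 5 each), with overlapping groups and an exact permutation p of 0.310. Fitted with every gene above 0, *Cd3e* had a limma adjusted p of 0.831. Summed over *Cd3d*, *Cd3e* and *Cd3g*, the level averaged 0.725 ± 0.497 FPKM for vehicle and 0.581 ± 0.147 FPKM for MEKi (SD, n = 5 each).

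The coreceptors comprised a gene with close group means, *Cd4*, and the gene with the largest ratio of means, *Cd8a*. *Cd4* (ENSMUSG00000023274, chr6:124864692-124888221, minus strand), the coreceptor of helper T cells, was at 0.147, 0.533, 0.0523, 0.356 and 0.187 FPKM in vehicle hearts 1 to 5 and at 0.376, 0.231, 0.253, 0.291 and 0.221 FPKM in MEKi hearts 1 to 5. As with *Cd3d*, vehicle heart 2 was the highest, vehicle heart 3 the lowest, and all MEKi hearts lay between them. The means were 0.255 ± 0.190 and 0.275 ± 0.0629 FPKM (SD, n = 5 each). In log2 units MEKi minus vehicle was 0.23 (SE 0.37, 95% confidence interval -0.57 to 1.03, limma adjusted p = 0.926, exact permutation p = 0.833), and it was -0.03 without vehicle heart 3. The variance between MEKi hearts was 0.970 times that expected from counting error alone, against 8.43 times between vehicle hearts.

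*Cd8a* (ENSMUSG00000053977, chr6:71373427-71379173, plus strand), which encodes CD8 alpha of cytotoxic T cells, was at 0.163, 0.0763, 0.0774, 0.217 and 0.0945 FPKM in vehicle hearts 1 to 5 and at 0.305, 0.401, 0.449, 0.215 and 0.122 FPKM in MEKi hearts 1 to 5. All 5 MEKi hearts exceeded the vehicle median, 3 of them exceeded every vehicle heart, and MEKi hearts 4 and 5 lay within the vehicle range. These values rest on 4 to 11 fragments per vehicle heart and 7 to 25 per MEKi heart. The means were 0.126 ± 0.0624 and 0.298 ± 0.133 FPKM (SD, n = 5 each), a ratio of 2.37. The log2 difference was 0.79 (SE 0.33, 95% confidence interval 0.07 to 1.502). Its limma p was 0.0331 before and 0.666 after adjustment over all genes, and the exact permutation p was 0.0397, or 0.0556 on ranks (two-sided, unadjusted). *Cd8a* therefore did not pass the threshold, and 1 gene of 8 at this unadjusted level stands beside 7.04% of all genes. Leaving out each heart in turn gave log2 differences from 0.65 to 0.98.

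*Cd8b1*, which encodes the CD8 beta chain that pairs with CD8 alpha on most cytotoxic T cells, and *Xcr1*, a chemokine receptor of the dendritic cells that carry CD8 alpha without beta, were looked at after the values of *Cd8a* were seen. *Cd8b1* averaged 0.284 ± 0.264 FPKM for vehicle and 0.421 ± 0.212 FPKM for MEKi (SD, n = 5 each; exact permutation p = 0.389, limma adjusted p = 0.811), with its highest values in vehicle heart 5 (0.741 FPKM) and MEKi heart 2 (0.786 FPKM). *Xcr1* was at 0.132 ± 0.0903 and 0.369 ± 0.0975 FPKM (exact permutation p = 0.0159, limma adjusted p = 0.495). Its vehicle hearts reached 0.258 FPKM and its MEKi hearts began at 0.249 FPKM, so the groups overlapped by a narrow margin. *Clec9a*, a receptor of the same dendritic cells, was lower on average in MEKi hearts (0.927 ± 0.267 FPKM) than in vehicle hearts (1.12 ± 0.436 FPKM, limma adjusted p = 0.878). The part of either cell type in the *Cd8a* values was not tested. Per length, the ratio of *Cd8a* to *Cd4* lay between 0.143 and 1.48 for vehicle and between 0.554 and 1.77 for MEKi.

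The B cell genes overlapped between the groups, and *Cd79a* spread widely within each. *Cd79a* (ENSMUSG00000003379, chr7:24897381-24902197, plus strand), which encodes the alpha chain of the receptor's signalling pair, was at 1.67, 2.09, 0.241, 3.204 and 3.77 FPKM in vehicle hearts 1 to 5 and at 0.280, 2.80, 2.43, 0.921 and 1.35 FPKM in MEKi hearts 1 to 5. Vehicle heart 3 and MEKi heart 1 were the lowest of their groups, and vehicle heart 5 was 15.6 times as high as vehicle heart 3. The means were 2.20 ± 1.38 and 1.56 ± 1.05 FPKM (SD, n = 5 each). MEKi minus vehicle on the log2 scale was -0.41 (SE 0.68, 95% confidence interval -1.90 to 1.08, limma adjusted p = 0.933, exact permutation p = 0.413). The variance between hearts was 18.3 and 17.5 times that of counting in the vehicle and MEKi groups.

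*Cd79b* (ENSMUSG00000040592, chr11:106311341-106314762, minus strand), the beta chain of the pair, was at 1.12, 1.89, 0.295, 1.61 and 2.16 FPKM in vehicle hearts 1 to 5 and at 1.06, 0.733, 1.47, 1.29 and 0.934 FPKM in MEKi hearts 1 to 5. Vehicle heart 3 was again the lowest and vehicle heart 5 the highest, and the MEKi hearts lay between them. The means were 1.41 ± 0.735 and 1.098 ± 0.292 FPKM (SD, n = 5 each). In log2 units MEKi minus vehicle was -0.15 (SE 0.41, 95% confidence interval -1.05 to 0.75, limma adjusted p = 0.961, exact permutation p = 0.397). MEKi heart 1, with little *Cd79a*, had 1.06 FPKM of *Cd79b*, so the chains did not follow each other in every heart.

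*Ms4a1* (ENSMUSG00000024673, chr19:11249675-11266241, minus strand), which encodes CD20, was at 0.163, 0.191, 0.136, 0.337 and 0.244 FPKM in vehicle hearts 1 to 5 and at 0.0283, 0.235, 0.341, 0.0633 and 0.144 FPKM in MEKi hearts 1 to 5. MEKi heart 3 was the highest and MEKi heart 1, with 3 fragments, the lowest, so the MEKi group spanned the vehicle group on both sides. The means were 0.214 ± 0.0792 and 0.162 ± 0.128 FPKM (SD, n = 5 each). The log2 difference was -0.37 (SE 0.38, 95% confidence interval -1.19 to 0.45, limma adjusted p = 0.864, exact permutation p = 0.460). It ran from -0.59 without MEKi heart 3 to -0.15 without MEKi heart 1, was -0.24 without vehicle heart 4 and -0.23 without MEKi heart 4, and was -0.80 with voom on recovered fragments. Summed over *Cd79a*, *Cd79b* and *Ms4a1*, the level averaged 3.83 ± 2.13 FPKM for vehicle and 2.82 ± 1.17 FPKM for MEKi (SD, n = 5 each).

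**Figure D2:**
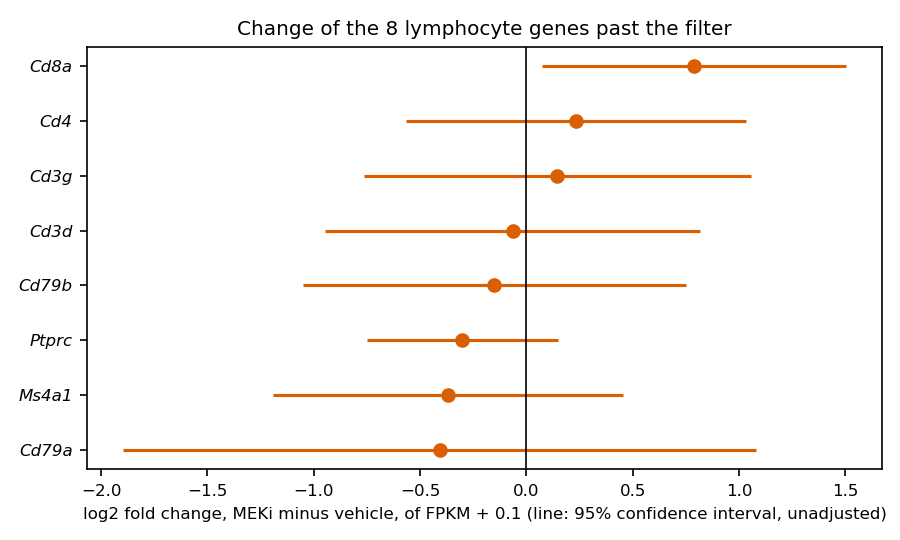
Difference of mean log2(FPKM + 0.1), MEKi minus vehicle (horizontal axis), for the 8 lymphocyte genes past the filter. Points are estimates and lines are unadjusted 95% confidence intervals; every interval includes 0 except that of *Cd8a*, which runs from 0.07 to 1.502, and *Cd8a* had an adjusted p of 0.666 (limma).

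Single hearts stood out in several genes at once. Vehicle heart 3 was the lowest of the 10 for 5 of the 9 genes (*Cd3d*, *Cd3g*, *Cd4*, *Cd79a* and *Cd79b*), while it was the lowest for 16.6% of all genes tested. It also had the largest mitochondrial share, 35.01%, and the part of that share in these values was not tested. Vehicle heart 5 was the highest for *Ptprc*, *Cd3g*, *Cd79a* and *Cd79b* (16.7% of all genes tested), vehicle heart 2 for *Cd3d*, *Cd3e* and *Cd4* (6.58%), and MEKi heart 3 for *Cd8a* and *Ms4a1* (7.70%). The ratio of summed B cell to summed CD3 genes ran from 1.97 in MEKi heart 1 to 12.7 in vehicle heart 4, with a median of 4.81. Vehicle heart 4 reached this ratio with 5.15 FPKM of the B cell genes and 0.404 FPKM of the CD3 genes.

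Relations among the CD3 sum, the B cell sum and *Ptprc* were computed over the 10 hearts on the log2 scale, 3 in all. The CD3 and B cell sums had a Pearson's r of 0.61 (permutation p = 0.0679, adjusted p = 0.137) and a Spearman's rho of 0.32 (permutation p = 0.371, adjusted p = 0.371). Without vehicle hearts 2 and 3, the farthest from the median, r was -0.03, so the relation rests on those hearts. *Ptprc* and the CD3 sum had r of 0.41 (permutation p = 0.235, adjusted p = 0.235) and rho of 0.43 (permutation p = 0.219, adjusted p = 0.329), and r fell to 0.05 without vehicle hearts 2 and 5. *Ptprc* and the B cell sum had r of 0.57 (permutation p = 0.0913, adjusted p = 0.137) and rho of 0.61 (permutation p = 0.0669, adjusted p = 0.201), with r of 0.33 without the same pair of hearts. Centring each group on its mean gave r of 0.61, 0.46 and 0.58, but the groups differed. For the CD3 and B cell sums r was 0.75 over vehicle hearts and -0.23 over MEKi hearts (n = 5 each). For *Ptprc* and the CD3 sum r was 0.63 over vehicle and -0.64 over MEKi hearts. For *Ptprc* and the B cell sum it was 0.55 and 0.70. None of the 3 passed the test.

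These sums were then set against longer marker lists, 8 relations chosen after the data were seen and adjusted over the 8. The B cell sum followed the other 19 B cell genes, of which *Igkc* and *Ighm* gave most of the summed FPKM, with r of 0.93 (permutation p = 5.00e-05, adjusted p = 0.000400) and rho of 0.95 (permutation p = 0.000170, adjusted p = 0.00136). Without vehicle heart 3 and MEKi heart 1, r was 0.87 (exact permutation p = 0.00680, n = 8), and centred within treatment it was 0.94. The CD3 sum against the other 24 T cell genes had r of 0.62 (permutation p = 0.0627, adjusted p = 0.125) and rho of 0.38 (permutation p = 0.280, adjusted p = 0.373). That relation rests on vehicle heart 3 and MEKi heart 2, since r was 0.05 without them.

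*Ptprc*, which macrophages also express, followed the macrophage and monocyte markers. Over 15 such genes r was 0.89 (permutation p = 0.00212, adjusted p = 0.00848) and rho was 0.73 (permutation p = 0.0203, adjusted p = 0.0541). Without vehicle heart 5 and MEKi heart 5, r was 0.79 (exact permutation p = 0.0206, n = 8), and centred within treatment it was 0.89. For the B cell sum against the same list r was 0.54 (permutation p = 0.113, adjusted p = 0.151) and rho was 0.68 (permutation p = 0.0346, adjusted p = 0.0692), with r of 0.42 without the same pair of hearts. For the CD3 sum r was 0.36 (permutation p = 0.282, adjusted p = 0.322) and rho was 0.45 (permutation p = 0.193, adjusted p = 0.309), with r of 0.34 without that pair. The difference between these correlations was not tested.

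Red blood cell markers varied widely and set a pair of hearts apart. Summed over *Hbb-bs*, *Hba-a1* and 3 other genes, they were at 23639 and 25874 FPKM in vehicle hearts 4 and 5 and between 2899 and 7386 FPKM in the other 8 hearts. Vehicle hearts 4 and 5 also had the highest B cell sums, 5.15 and 6.18 FPKM. Relations over all 10 hearts were computed and counted among the 8 adjusted together, but they are not given, because vehicle hearts 4 and 5 form a separate cluster. Over the other 8 hearts, with unadjusted p, the B cell sum and the red blood cell markers had r of 0.70 (exact permutation p = 0.0508) and rho of 0.67 (exact permutation p = 0.0831). For the CD3 sum r was 0.16 (exact permutation p = 0.712) and rho was -0.10 (exact permutation p = 0.840), and for *Ptprc* r was 0.38 (exact permutation p = 0.349) and rho was 0.24 (exact permutation p = 0.582). Within the 5 MEKi hearts alone, r with these markers was 0.93 for the B cell sum. It was -0.33 for the CD3 sum and 0.89 for *Ptprc*, with no test of these values. Without vehicle hearts 4 and 5, a choice made after seeing the data, the log2 differences of *Cd79a* and *Cd79b* became 0.27 and 0.25 (limma adjusted p = 0.974 and 0.955), and 5 of the 8 lymphocyte genes were higher. The part of blood in these values was not tested.

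**Figure D3:**
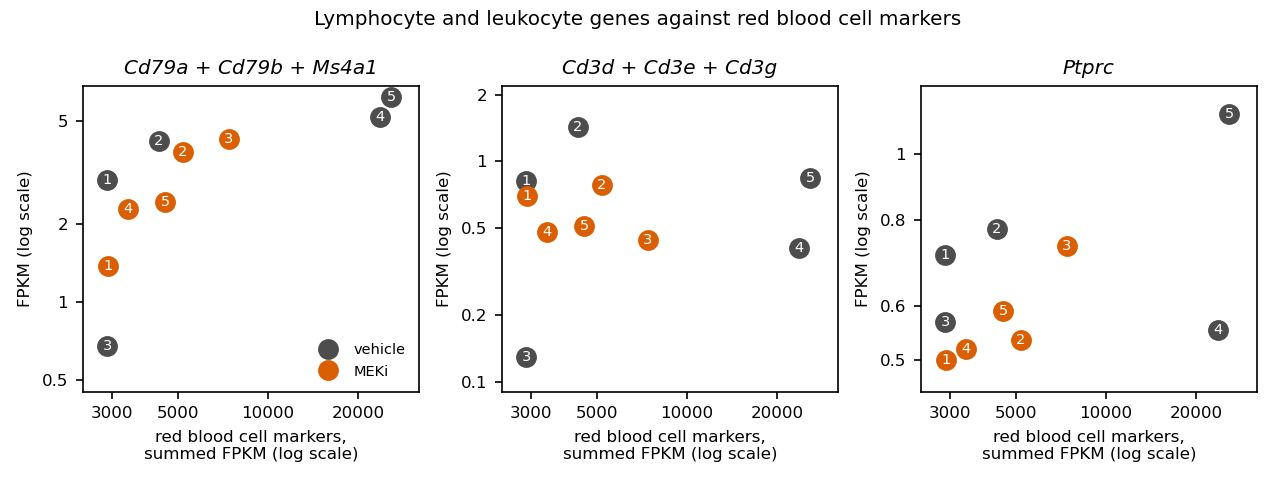
Summed FPKM of 5 red blood cell markers (horizontal axes, log scale) against FPKM of the B cell genes, the CD3 genes and *Ptprc* (vertical axes, log scale), 1 numbered point per heart. Vehicle hearts 4 and 5 stand apart at 23639 and 25874 FPKM of the red blood cell markers and have the highest B cell sums, 5.15 and 6.18 FPKM.

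Genes whose pattern over the 10 hearts was most like each profile were drawn from 11249 protein-coding genes averaging 0.5 FPKM or more, by Pearson's r on the log2 scale, as a description with no test. For the CD3 sum they included *Dhx58* (r = 0.91), an RNA sensor, *Opn3* (0.89), an opsin, *Pld2* (0.89), a phospholipase D, and *Fkbp10* (0.87), a collagen chaperone. These 4 were lowest in vehicle heart 3, and without vehicle hearts 2 and 3 their r ran from 0.48 to 0.65. For the B cell sum they were *Gemin7* (0.96), *Tcirg1* (0.95), *Nxn* (0.95), *Limd2* (0.95) and *Cx3cl1* (0.94), with r from 0.80 to 0.91 without vehicle heart 3 and MEKi heart 1. For *Ptprc* they were *Pcgf3* (0.96), *Csf1r* (0.95), *Cntrl* (0.94), *Msr1* (0.94) and *Mrc1* (0.92), with r from 0.66 to 0.89 without vehicle hearts 2 and 5. *Csf1r*, the receptor for a growth factor of macrophages, and *Mrc1*, the mannose receptor, were also in the macrophage list.

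Other T cell genes were described by the same counts, and none was called. Of 24 genes, 20 passed the filter, 13 with higher and 7 with lower mean log2 values in MEKi hearts, and 0 had an unadjusted p under 0.05 (limma). The median difference was 0.15, and summed FPKM ranged between 6.0001 and 15.5 for vehicle and between 9.06 and 17.4 for MEKi. *Thy1*, a surface glycoprotein of T cells that stromal cells also carry, had the highest level, 3.94 ± 0.782 and 3.99 ± 0.811 FPKM in vehicle and MEKi hearts (SD, n = 5 each). *Trbc2*, a constant segment of the receptor's beta chain, was at 1.07 ± 0.662 and 1.96 ± 1.36 FPKM (limma adjusted p = 0.796), with MEKi hearts 2 and 3 at 3.45 and 3.44 FPKM.

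Genes of regulatory T cells and checkpoints were at low levels, with 3 of 6 past the filter, all 3 lower in MEKi hearts (median -0.41). *Foxp3*, *Icos* and *Pdcd1*, below the filter and named after their values were seen, had at most 5, 14 and 9 fragments per heart. *Ctla4*, a receptor that restrains T cell activation, was at 0.665 ± 0.254 and 0.381 ± 0.114 FPKM in vehicle and MEKi hearts (log2 difference -0.64, SE 0.27, exact permutation p = 0.0476, limma adjusted p = 0.669), and the groups overlapped. *Il2ra*, the alpha chain of the interleukin-2 receptor, was at 0.279 ± 0.0869 and 0.184 ± 0.0589 FPKM (limma adjusted p = 0.793). Of 12 genes of NK and cytotoxic cells, 7 passed the filter, 4 higher and 3 lower (median 0.21, 0 called, 0 with an unadjusted p under 0.05). *Ccl5*, a chemokine, led them at 1.90 ± 0.657 and 2.17 ± 0.596 FPKM, followed by *Gzma*, a granule protease, at 1.38 ± 0.703 and 1.31 ± 0.647 FPKM.

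Other B cell genes numbered 19, of which 17 passed the filter, 6 higher and 11 lower in MEKi hearts (8 higher and 9 lower on the TPM scale), with a median of -0.13, 0 called and 0 with an unadjusted p under 0.05 (limma). Their summed FPKM lay between 13.7 and 42.3 for vehicle and between 15.3 and 38.3 for MEKi. *Igkc*, the constant segment of the kappa light chain, was at 15.3, 8.47, 3.97, 20.7 and 20.8 FPKM in vehicle hearts 1 to 5 and at 3.62, 10.6, 14.5, 5.99 and 6.46 FPKM in MEKi hearts 1 to 5. Vehicle heart 3 and MEKi heart 1 were again the lowest of their groups, as for *Cd79a*. *Ighm*, the constant region of IgM, was at 9.15 ± 2.09 and 7.92 ± 2.04 FPKM (limma adjusted p = 0.851). Of 11 plasma cell genes 8 passed the filter, 6 higher and 2 lower (median 0.06, 0 called). Among them *Ighg2c*, an IgG constant region, was at 4.65 ± 0.652 and 4.74 ± 0.728 FPKM. *Xbp1*, a transcription factor made by many cells, was at 30.0 ± 6.11 and 26.9 ± 3.62 FPKM.

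The kinases and adaptors that act beneath both receptors are shared with other cell types of the blood lineage and beyond. All 13 passed the filter, 2 higher and 11 lower in MEKi hearts (4 and 9 on the TPM scale), with a median of -0.17 and 0 called (limma). *Fyn*, a *Src* family kinase, was at 8.24 ± 0.625 and 9.42 ± 0.759 FPKM, and *Csk*, which restrains such kinases, at 6.33 ± 0.471 and 5.75 ± 0.602 FPKM (limma adjusted p = 0.707 and 0.814). *Syk*, the kinase that binds the CD79 chains and is also abundant in myeloid cells, was the 1 gene of the list with an unadjusted p under 0.05 and was named after its values were seen. It averaged 2.83 ± 0.174 FPKM for vehicle and 2.05 ± 0.235 FPKM for MEKi (log2 difference -0.45, SE 0.11, exact permutation p = 0.00794, the smallest possible, limma adjusted p = 0.358). Its groups did not overlap, with vehicle hearts from 2.67 to 3.09 FPKM and MEKi hearts from 1.79 to 2.35 FPKM.

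Other leukocyte lists were counted in the same way, and none of their genes was called. Of 13 genes shared by leukocytes 4 were higher and 9 lower in MEKi hearts (median -0.17), led by *Arhgdib* (14.5 ± 4.42 and 12.5 ± 1.63 FPKM) and *Laptm5* (11.7 ± 3.24 and 8.26 ± 0.946 FPKM, exact permutation p = 0.0159, limma adjusted p = 0.573). Of 15 macrophage and monocyte markers 14 were lower (12 on the TPM scale) and 5 of these had an unadjusted p under 0.05, with a median of -0.36. Their summed FPKM lay between 469 and 801 for vehicle and between 378 and 469 for MEKi. *Lyz2*, lysozyme of myeloid cells, was at 281 ± 67.0 and 199 ± 21.98 FPKM, with no overlap between vehicle (from 233) and MEKi hearts (up to 226; exact permutation p = 0.00794, limma adjusted p = 0.499), and *C1qa*, a complement component made by macrophages, at 102 ± 23.1 and 83.0 ± 7.41 FPKM. The part of macrophages in the *Ptprc*, *Syk* and *Laptm5* values was not tested.

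Of 7 dendritic cell markers 3 were higher and 4 lower, with summed FPKM between 3.36 and 5.63 for vehicle and between 2.96 and 4.34 for MEKi, and *Zbtb46* and *Clec9a* were the highest. Of 9 neutrophil and mast cell markers 7 passed the filter, 1 higher and 6 lower. Of the lower ones 2 had an unadjusted p under 0.05 (limma), and 0 were called. The summed FPKM of the list was highest in vehicle heart 5 (97.4 against 36.1 or less in every other heart), mostly *S100a9* and *S100a8*. *S100a8* was at 7.73 ± 6.24 and 1.93 ± 1.66 FPKM in vehicle and MEKi hearts (limma adjusted p = 0.484), and its groups overlapped. *Ly6g*, named after its values were seen, was listed at 0 in all hearts. All 5 red blood cell markers were lower in MEKi hearts (median -0.90, 0 called). All 5 were higher once vehicle hearts 4 and 5 were left out (median 0.28). Those hearts were picked for their high values of these same markers, so the choice itself favours that reversal.

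Markers of developing lymphocytes and of lymph node vessels were used to look for stray thymus or lymph node in the samples. *Rag2*, which cuts antigen receptor genes, *Dntt*, which adds bases at their joints, *Foxn1*, the master factor of thymus epithelium, and *Glycam1*, of lymph node venules, had no fragment in any heart, which allows up to 3 fragments in each. *Rag1* and *Ptcra* had at most 1 fragment per heart. These 6 genes were named after their values were seen. So were *Aire* and *Cxcl13* of the same list, which were not absent. *Aire* had up to 10 fragments in a heart. *Cxcl13* had up to 14, at 0.316 ± 0.207 and 0.331 ± 0.293 FPKM in vehicle and MEKi hearts. *Ccl21a*, a chemokine that lymphatic vessels also make, was the highest of the list at 26.3 ± 16.7 and 39.9 ± 31.9 FPKM in vehicle and MEKi hearts, followed by *Cd1d1* at 1.19 ± 0.327 and 1.52 ± 0.515 FPKM. *Ccl21a* has near-identical copies, and a second row of the same name was at 0.199 ± 0.147 and 0.139 ± 0.0820 FPKM, so the split of its reads between copies is uncertain.

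**Figure D4:**
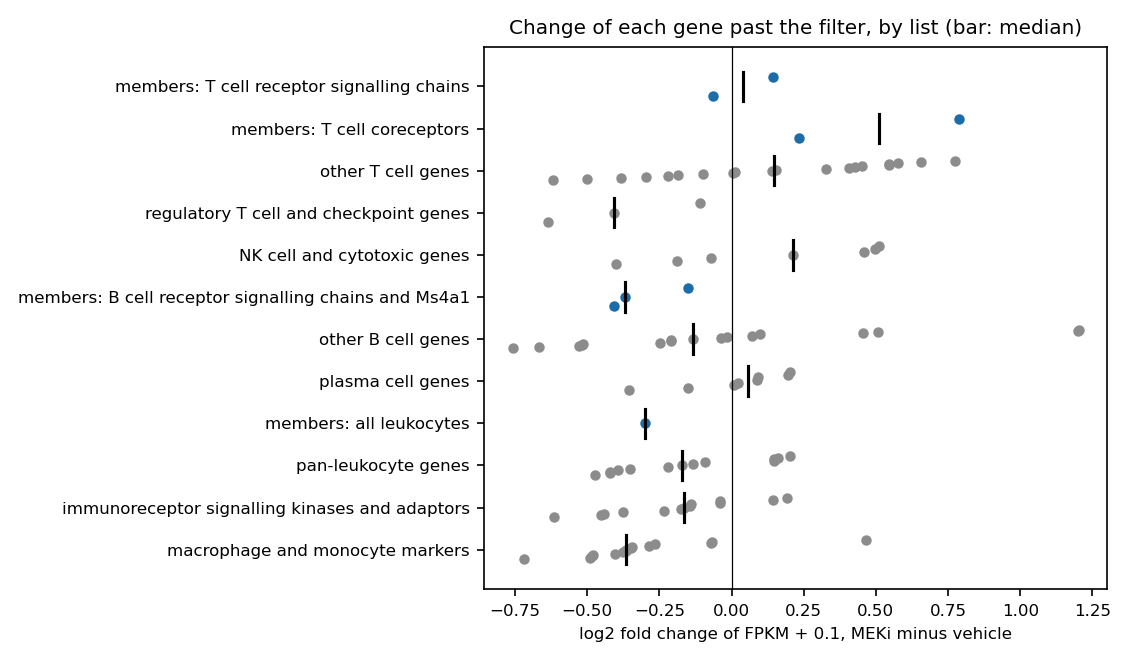
Difference of mean log2(FPKM + 0.1), MEKi minus vehicle (horizontal axis), for each gene past the filter, grouped by list (rows), with the lymphocyte genes in blue, the other lists in grey and a bar at each median. The medians of the macrophage list (-0.36) and the regulatory T cell list (-0.41) lie below 0, that of the other T cell genes (0.15) lies above it, and no gene shown had an adjusted p under 0.05 (limma).

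The other cells of the heart were compared in the same way. Of 6 cardiomyocyte markers 5 were higher and 1 lower in MEKi hearts (6 and 0 on the TPM scale), led by *Actc1* (5529 ± 727 and 5378 ± 645 FPKM) and *Tnni3* (2657 ± 486 and 2950 ± 495 FPKM). Among fibroblast markers 2 of 6 were higher, among endothelial markers 2 of 6, and among adipocyte markers 2 of 4. None of these was called (limma), and summed endothelial markers, which also track vessels, lay between 113 and 173 FPKM for vehicle and between 114 and 144 FPKM for MEKi.

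Annotated genes that overlap the lymphocyte genes had low counted levels. How many reads were shared with them, or with similar genes elsewhere, was not examined. *Ms4a1* overlaps an antisense gene whose highest level was 0.0570 FPKM, *Ptprc* a same-strand gene of undecided type at up to 0.0608 FPKM, and *Cd3e* a pair of genes listed at 0 in every heart. The other 6 genes overlap no annotated gene in GENCODE M21. Whether the counting used strand is not given in the sources used here.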

How the data were processed

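Poly(A) RNA of 10 hearts was sequenced, and the authors deposited 1 table of FPKM with gene lengths and coordinates. The submitters' processing notes name fastp, STAR 2.5, HTSeq 0.6.1 and mm10. FPKM times length gave whole multiples of 1 step per heart for 100% of values (tolerance 0.001 fragments), and 98.3% of 54409 GENCODE M21 identifiers had the same GRCm38 coordinates. Groups and replicate numbers came from the labels. No test is stated for these libraries. The labels call the hearts of a group biological replicates.

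The lymphocyte genes and the other lists were chosen with earlier results of these data known. Named genes are the 9 lymphocyte genes, called genes and the 2 highest of each list, and the 5 genes most like each of 3 profiles, of which 1 is not reported here. Genes named otherwise are marked as chosen after their values were seen. Genes averaging 0.1 FPKM or more were fitted on log2(FPKM + 0.1) by limma (3.58.1, under R 4.3.3; eBayes trend on), with two-sided p-values adjusted by the Benjamini-Hochberg method and called under 0.05. Single genes were compared by exact permutation, and correlations by 100000 permutations or, for 8 hearts, all of them. Limits for 0 were set at 3 fragments and cover counting error only. The fit was tested on simulated data. Python 3.11.15, numpy 2.4.6, pandas 2.3.3, scipy 1.17.1 and matplotlib 3.10.9 were used. Promoter windows came from RefSeq, in which 6 of the 9 genes matched. Alternatives were pseudocounts of 1 and 0.01, filters at 0.5 and 1 FPKM or none, TPM and quantile scaling, no trend, voom on recovered fragments, a block, X, Y and mitochondrial genes left out, each heart left out and, chosen after seeing the data, vehicle hearts 4 and 5 left out and lengths of principal transcripts.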

Additional observations from a re-analysis of the deposited data

Results flagged for a closer look

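Of 22 sets of 5 hearts examined (each lymphocyte gene and both sums in each group), 0 held a heart far enough from the others to be set apart by Dixon's test, where chance would give about 1.1.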

How the results depend on the processing

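None of the 8 lymphocyte genes was called under any of 22 alternatives, whose lowest adjusted p for them was 0.504 (limma). Only 3 of them were tested with the filter at 0.5 FPKM, and 2 with the filter at 1 FPKM. Of 165 log2 differences recomputed for them, 154 kept their direction and 11 reversed. The 154 include values that could not change, so this count overstates how stable the directions were. A different filter, a fit with no trend or a block on replicate number can move only the p-values. The same holds for dropping genes of the sex chromosomes and mitochondria. *Cd79a*, for example, stayed at -0.41 under each of these. *Cd3d* became 0.012 with a pseudocount of 0.01 and 0.021 on the TPM scale, and without vehicle hearts 4 and 5 *Cd79a* and *Cd79b* became 0.27 and 0.25. Leaving out each heart in turn gave from -0.41 to 0.25 for *Cd3d* (above 0 without vehicle heart 2 or MEKi heart 3), from -0.999 to 0.044 for *Cd79a* (without MEKi heart 1), from -0.58 to 0.048 for *Cd79b* (without vehicle heart 2 or 5), from -0.031 to 0.48 for *Cd4* and from -0.19 to 0.36 for *Cd3g* (both below 0 without vehicle heart 3). *Ptprc*, *Cd8a* and *Ms4a1* kept their direction in all alternatives run, with ranges from -0.39 to -0.14, from 0.20 to 1.17 and from -0.80 to -0.067. *Cd8a* on ranks had an exact permutation p of 0.0556. The cause was not tested.

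Over all genes 13 were called, 7 of them on X or Y (10 in all with voom on recovered fragments). The count was 8 with a pseudocount of 1, 8 at a mean of 1 FPKM or more, 0 once X, Y and mitochondrial genes were dropped (1128 at an unadjusted limma p under 0.05), 5 without vehicle hearts 4 and 5, and from 6 to 12 without 1 heart. With the replicate block it was 4, and no lymphocyte gene was called. The labels state no pairing of hearts that share a number. Their deviations correlated between -0.08 and -0.01, and no vehicle heart correlated best with the MEKi heart of its own number. These values cannot show whether such hearts had anything else in common. From 0 to 31 fragments per heart stood behind *Cd3d*, *Cd3e*, *Cd3g*, *Cd4*, *Cd8a* and *Ms4a1*, which limits their precision.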
